A study of Mus musculus with 18 samples.

Results

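The genes described here are the ribosome biogenesis genes of mouse fibroblasts, taken as every row of the deposited count table whose pathway column holds the KEGG entry mmu03008 and which reached 10 counts in at least 3 of the 18 libraries. This rule took 69 of the 76 rows with that entry, out of 57180 rows in the table, of which 14366 passed the same minimum. Each of the 69 reached 10 counts in all 18 libraries, and their lowest count anywhere was 106. The 7 rows left out were Nxf2, Nxf3, Nxf7, Fbll1, Rpp25, 1700009N14Rik and Rasl2-9, none of which exceeded 5 counts in a library.

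The libraries came from L929 cells, an established line of wild-type mouse fibroblasts, in 6 groups of 3 cultures each. Mock cells carried the label DMSO. AOA cells received aminooxyacetic acid, an inhibitor of aminotransferases, at 0.5 mM, and AOA+Asp cells received AOA together with 20 mM aspartate. HT-DNA cells were transfected with herring testis DNA, a ligand of the cytosolic DNA sensor cGAS, at 0.5 μg/ml with Lipofectamine 2000 for 6 h. HT-DNA+AOA cells had AOA for 1 h before the DNA, and HT-DNA+AOA+Asp cells had all 3 agents. The same 1 h of AOA pretreatment is recorded for AOA and AOA+Asp cells, whose further time in AOA is not recorded. Whether the AOA effects with and without HT-DNA are at matched times is therefore not known. No group received aspartate alone or, by the labels, transfection reagent without DNA, so an effect of the reagent and one of the DNA cannot be told apart. All cells shared 1 genotype and 1 line, and the study describes the 3 samples of a group as independent cultures.

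Ribosomes are assembled in the nucleolus, where RNA polymerase I transcribes a long precursor of the ribosomal RNAs. Small nucleolar ribonucleoproteins modify that precursor, large complexes of U3 and UTP proteins fold and hold it, nucleases cut it, and ATPases and GTPases remodel the particles before export to the cytoplasm. The last factors leave or act in the cytoplasm, where the subunits become able to translate. The pathway is known to use a large share of the transcription and of the nucleotides of growing cells.

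The cells matched their label in part. Of 10 fibroblast markers, 9 exceeded 1 CPM (counts scaled to a fixed library size after TMM normalization) in every library and Thy1 was under it in every library. All 4 epithelial and all 3 endothelial markers, and 4 of 5 leukocyte markers, were under 1 CPM in every library, whereas Cd68 was at 110 to 155 CPM. Totals ran from 17901605 to 24057343 counts per library. The 3 HT-DNA+AOA libraries stood further apart than the replicates of any other group, with a chi-square per degree of freedom between pairs of 16.7 to 61.5, beside 2.69 to 12.2 in the other 5 groups. The median SD of the 69 genes in that group was 0.179 on the log2 CPM scale, beside 0.0397 to 0.0918 in the others. Counts of genes called in comparisons with that group are also given without some of its libraries. The counts of genes shared between comparisons, and the fold changes of single genes, use all 3 of them.

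The 69 genes together took a small part of each library, which is drawn by library in the plot of shares. In Mock libraries they held 0.771% to 0.798% of all counts, in AOA libraries 0.863% to 0.896% and in AOA+Asp libraries 0.79% to 0.834%. HT-DNA libraries held 0.87% to 0.887%, HT-DNA+AOA libraries 0.893% to 0.971% and HT-DNA+AOA+Asp libraries 0.889% to 0.895%. The Mock libraries were lowest but for an overlap with AOA+Asp, and the HT-DNA+AOA libraries spread most. These are shares of RNA from whole cultures, so they do not show the number of cells or the amount of RNA per cell.

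**Figure D1:**
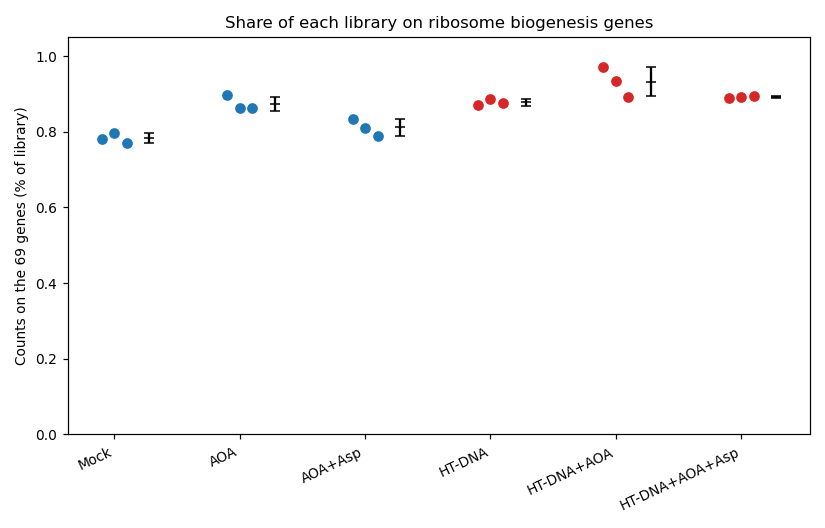
The vertical axis gives the percentage of each library's counts that fell on the 69 ribosome biogenesis genes, and the horizontal axis the 6 groups, with 1 point per library, blue without and red with HT-DNA, and a black mark for the mean with bars of 1 SD. Mock libraries lie between 0.771% and 0.798%, below all libraries with AOA alone or with HT-DNA.

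Per kilobase of the longest coding transcript, and averaged over all libraries, the highest levels belonged to Ran (421 CPM per kilobase), the GTPase that drives nuclear export, and to Fbl (286 CPM per kilobase), the methyltransferase of box C/D particles. Nop56, a core protein of the same particles, followed at 241 CPM per kilobase. The lowest were the exonucleases Xrn1 and Rexo5, at 3.14 and 3.15 CPM per kilobase. The genes below are ordered by their role in the pathway, and a gene is called changed where edgeR's quasi-likelihood test gave a Benjamini-Hochberg adjusted p under 0.05 over the 14263 genes tested. Shares over all genes were computed with this fit alone. Counts under other settings stand without such a share, and are given only as a check on the count of this fit.

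AOA raised most of the ribosome biogenesis genes that it changed. Against Mock, 41 of the 69 genes passed the test, beside 45.7% of all genes tested. Of these, 34 rose, which is 49.3% of the 69 beside 22.5% of all genes, and 7 fell, which is 10.1% beside 23.2%. The median log2 fold change of the 69 was 0.27, and that of all genes 0.02. With libraries scaled by their totals alone, the median of all genes moved to -0.12 and the split of the 69 to 28 higher and 10 lower. The groups did not overlap for 40 of the 41 genes called. That share was not computed over all genes, so it cannot be read as particular to these genes.

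In the box C/D particles, which guide methylation of ribosomal RNA on the ribose, Nop56 rose 2.27-fold. Its level was 261, 276 and 264 CPM in the Mock libraries and 628, 586 and 601 CPM in the AOA libraries. The AOA libraries were all above the Mock libraries, a log2 fold change of 1.18 ± 0.06 (SE; adjusted p = 2.555e-11 by edgeR's quasi-likelihood test). In the GENCODE vM21 annotation 8.12% of the exon bases of Nop56 also belong to other genes, which are snoRNA genes and, on the opposite strand, Idh3b. The log2 fold change of Idh3b was 0.42 with AOA and -0.32 when aspartate was added, and its part in the value of Nop56 was not tested. Of the 31-base words of Nop56, 22.4% also occur in other genes, so its reads could be divided among them. Fbl rose by 0.42 on the log2 scale. Nop58, the remaining core protein among the 69 genes, had 208, 223 and 245 CPM in Mock and 228, 228 and 267 CPM in AOA. It did not pass the test. Among the box H/ACA proteins, which guide pseudouridylation, Gar1 rose by 0.65 and Nhp2 by 0.49 on the log2 scale, while the log2 fold changes of Dkc1 and Nop10 were 0.16 each, without a call.

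The UTP complexes bind the precursor first. Of the UTP-A proteins 3 of 5 rose (Wdr43, Utp4 and Wdr75, by 0.49 to 0.54 on the log2 scale), of UTP-B 4 of 6 (Pwp2, Tbl3, Wdr36 and Wdr3), and of UTP-C with casein kinase 2 3 of 5 (Rrp7a, Nol6 and Csnk2a2), and none of these 16 genes fell. Wdr43 had 194, 197 and 192 CPM in Mock and 292, 267 and 289 CPM in AOA, with no overlap. Of 11 MPP10 and other factors of the 90S particle, 6 rose. They included the RNA acetyltransferase Nat10 (0.67), the U3-binding Imp3 (0.61) and Tcof1 (0.51), which supports transcription by RNA polymerase I.

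Among 14 nucleases and their subunits, 5 rose and 3 fell. Rpp38, a protein of RNase P and RNase MRP, had 4.57, 4.82 and 5.65 CPM in Mock and 10.4, 9.92 and 13.6 CPM in AOA. All AOA libraries were above all Mock libraries, a log2 fold change of 1.17 ± 0.13 (SE; edgeR adjusted p = 5.762e-07). The exonuclease Rexo5 rose by 0.97 ± 0.13, and Pop4, another RNase P and MRP subunit, by 0.73 ± 0.08 on the log2 scale. Pop7 and Rpp40 of the same enzymes rose as well (0.48 and 0.43), while Pop1, a large scaffold subunit of both, fell by 0.23 on the log2 scale. The 5'-to-3' exonuclease Xrn1, which acts mainly in cytoplasmic mRNA decay, fell from 38.1, 38.8 and 35.9 CPM to 26.5, 27.7 and 24.5 CPM, and Rexo1 fell by 0.28 on the log2 scale.

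Factors of the large subunit and of export were mixed. The ATPase Afg2a rose by 0.68 and the GTPase Gtpbp4 by 0.54 on the log2 scale, Gnl3 rose by 0.25, and the other 5 of the 8 nuclear 60S factors were not called. In export, the 60S adaptor Nmd3 rose by 0.49 and Ran by 0.38 on the log2 scale, while Nxt2 fell by 0.27 with overlapping groups. Xpo1, the exportin that carries both subunits out of the nucleus, had 402, 397 and 427 CPM in Mock and 254, 248 and 289 CPM in AOA. Its log2 fold change was -0.63 ± 0.07 (SE; edgeR adjusted p = 1.194e-06), with no overlap between the groups. Of the late cytoplasmic factors, the endonuclease Nob1, the kinases Riok1 and Riok2 and the anti-association factor Eif6 rose by 0.28 to 0.65, and the GTPase Efl1 fell by 0.31 on the log2 scale.

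Utp14b, a retrogene copy of the RNA helicase cofactor Utp14a, fell. It went from 40.1, 38.8 and 41.4 CPM in Mock to 20.3, 14.4 and 19.1 CPM in AOA, whereas Utp14a rose by 0.31 on the log2 scale. In the GENCODE vM21 annotation 3.18% of the exon bases of Utp14b also belong to Acsl3 on the same strand, and Acsl3 changed by -0.85 on the log2 scale. Such partners were looked up after the values were seen, and the part of Acsl3 in the value of Utp14b was not tested. When each library's trend with GC content and transcript length was removed, Xrn1 and Xpo1 still fell, by 0.26 and 0.37 on the log2 scale, which is over 1.5 times less than without it, and Nxt2 and Rexo1 were no longer called.

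**Figure D2:**
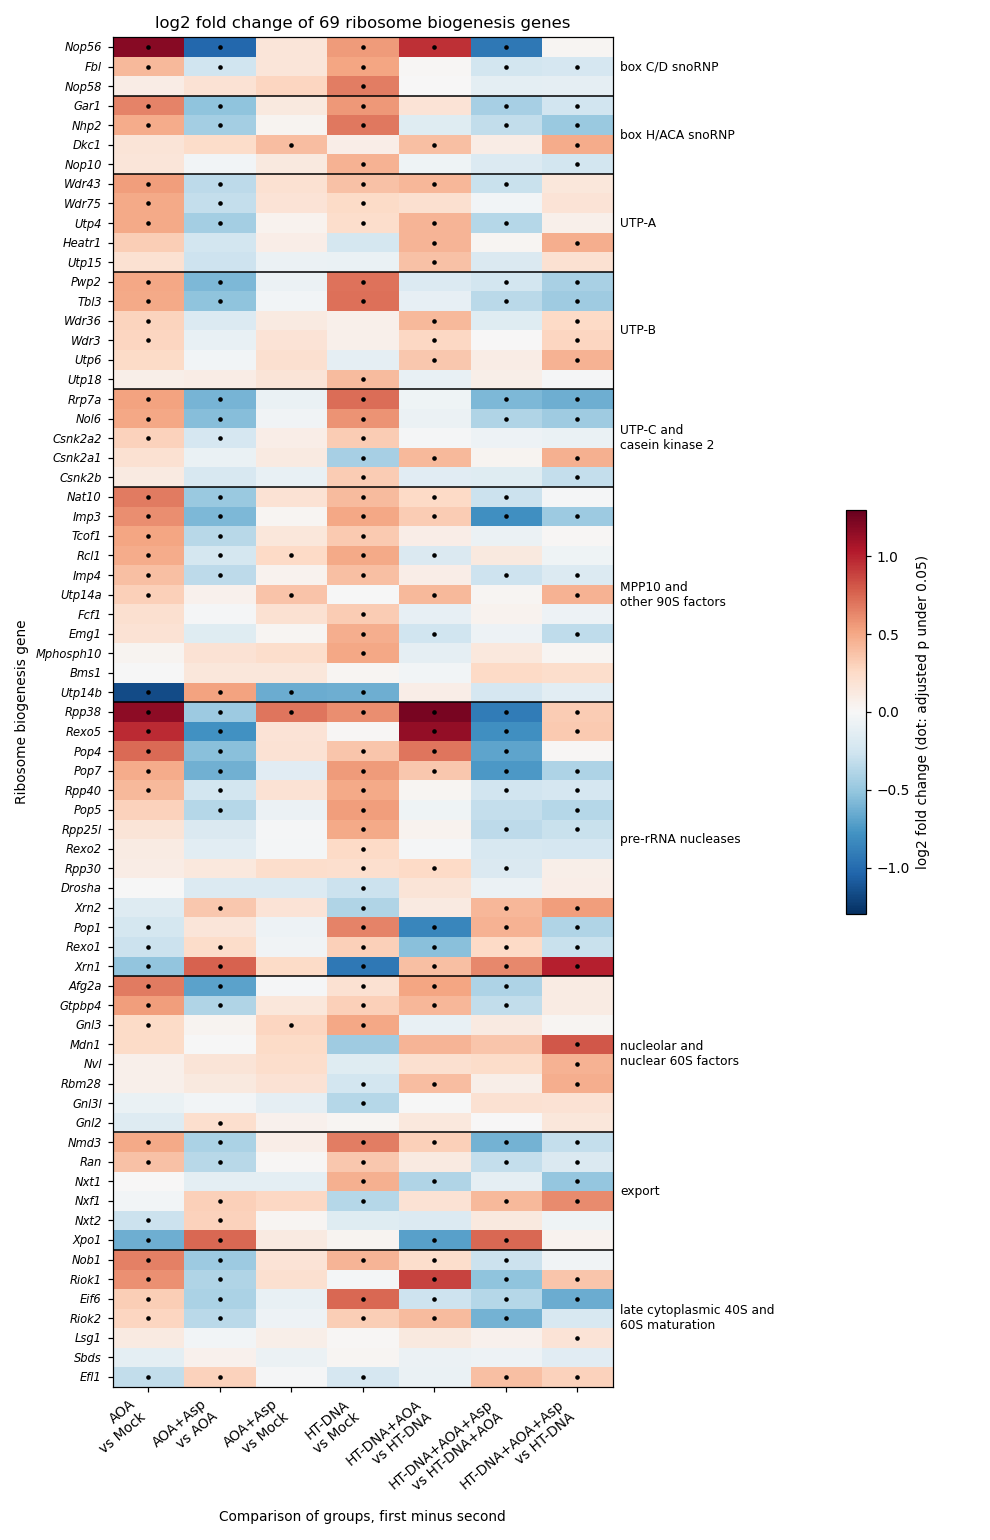
Each row is 1 of the 69 ribosome biogenesis genes, grouped by role and ordered within a role by the AOA effect, and each column a comparison of 2 groups. Colour gives the log2 fold change of the first group over the second, red for higher and blue for lower, and a dot marks an adjusted p under 0.05. The first and second columns share the AOA libraries, so that their colours are not independent, and so do the fifth and sixth columns with the HT-DNA+AOA libraries.

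The promoters of 4 genes are printed because they differ in 2 short motifs. Nop56, Rpp38 and Pwp2 were among the largest changes of a comparison, and Wdr43 had the highest level per kilobase of the UTP-A proteins. A RefSeq promoter (250 bases before to 50 bases after the start site, build GRCm38.p6) was found for 56 of the 69 genes. Both strands were searched for CACGTG, the E-box that Myc and Max bind, which reads the same on both strands, and for CCGGAA, the core of ETS factor sites. The 2 words cannot share letters with each other. CACGTG was in 21.43% of the 56 genes (12), beside 8.09% of all genes with a promoter, and CCGGAA in 51.79% (29), beside 16.66%. The shares over all genes took every gene with a promoter, whatever its level in these cells. They do not set the 69 beside other expressed genes alone. A match is only a run of letters in this window. Capitals mark the motifs below.
Nop56 (chr2:130274162-130274461, plus strand, neither motif): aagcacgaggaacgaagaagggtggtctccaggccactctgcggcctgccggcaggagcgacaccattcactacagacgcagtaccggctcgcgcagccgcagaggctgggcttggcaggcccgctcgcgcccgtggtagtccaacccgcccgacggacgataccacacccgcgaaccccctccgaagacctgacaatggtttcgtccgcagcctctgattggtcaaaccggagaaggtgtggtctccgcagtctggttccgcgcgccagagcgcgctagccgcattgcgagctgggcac
Rpp38 (chr2:3332579-3332878, minus strand, CACGTG 10 bases after the start site): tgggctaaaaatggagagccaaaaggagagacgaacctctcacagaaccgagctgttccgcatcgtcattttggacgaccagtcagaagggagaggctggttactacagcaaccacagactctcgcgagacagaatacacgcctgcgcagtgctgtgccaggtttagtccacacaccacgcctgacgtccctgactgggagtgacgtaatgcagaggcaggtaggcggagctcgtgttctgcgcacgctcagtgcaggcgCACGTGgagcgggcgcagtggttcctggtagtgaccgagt
Wdr43 (chr17:71615965-71616264, plus strand, CACGTG 17 bases after the start site): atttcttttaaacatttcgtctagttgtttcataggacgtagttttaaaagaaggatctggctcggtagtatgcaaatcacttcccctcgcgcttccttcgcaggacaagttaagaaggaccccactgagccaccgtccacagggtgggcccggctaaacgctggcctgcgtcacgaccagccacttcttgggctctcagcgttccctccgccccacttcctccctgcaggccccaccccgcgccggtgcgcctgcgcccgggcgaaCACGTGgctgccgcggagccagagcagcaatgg
Pwp2 (chr10:78185100-78185399, minus strand, CCGGAA matched 3 times, of which 2 overlap on opposite strands): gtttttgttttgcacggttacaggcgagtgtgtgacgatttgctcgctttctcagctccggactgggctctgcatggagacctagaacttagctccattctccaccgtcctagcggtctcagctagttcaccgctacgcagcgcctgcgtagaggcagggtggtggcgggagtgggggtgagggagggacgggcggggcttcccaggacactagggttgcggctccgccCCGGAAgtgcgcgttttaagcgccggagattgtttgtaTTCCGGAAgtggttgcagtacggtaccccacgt

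With AOA present, aspartate lowered most of the ribosome biogenesis genes that it changed. In all, 40 of 69 genes differed between AOA+Asp and AOA, beside 46.3% of all genes. Of these, 31 fell (44.9% of the 69, beside 22.8% of all genes) and 9 rose (13.0%, beside 23.4%), and the median over the 69 was -0.19 on the log2 scale, that over all genes -0.01. With library totals in place of TMM scaling the split was 25 lower and 15 higher. This comparison and that of AOA with Mock share the AOA libraries, so their opposite signs are not independent.

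Nop56 was at 305, 306 and 280 CPM in AOA+Asp, below every AOA library and above every Mock library. It fell by 1.02 on the log2 scale (SE 0.06, edgeR adjusted p = 2.347e-10). Afg2a fell by 0.70, Rexo5 by 0.79, Pop7 by 0.63, Rrp7a by 0.60 and Imp3 by 0.59 on the log2 scale. Rpp38, at 7.88, 8.32 and 8.09 CPM, lay between the Mock and the AOA libraries. Xpo1 rose to 457, 434 and 438 CPM, a log2 fold change of 0.75 ± 0.07. Xrn1 rose to 48.0, 41.6 and 44.2 CPM, a log2 fold change of 0.76 ± 0.13. The other 7 genes that rose were Xrn2, Rexo1, Utp14b, Gnl2, Nxf1, Nxt2 and Efl1, by 0.22 to 0.52 on the log2 scale. Corrected for GC content and length, Nxt2 was at -0.07 and Utp14b at 0.20, neither called.

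Against Mock, few of the 69 genes were called in AOA+Asp by the fit of all 18 libraries. The test called 6, beside 6.47% of all genes, 5 higher (beside 2.52%) and 1 lower (beside 3.95%). Rpp38 was higher by 0.69 ± 0.13 on the log2 scale, the pseudouridine synthase Dkc1 by 0.40, Utp14a by 0.37, the nucleolar GTPase Gnl3 by 0.28 and Rcl1 by 0.25, and Utp14b lower by 0.64. Dkc1 had 102, 110 and 108 CPM in Mock and 158, 135 and 130 CPM in AOA+Asp, although its AOA libraries, at 117, 113 and 128 CPM, were not called against Mock. The count was 2 without AOA+Asp replicate 1, 10 with DESeq2, 15 once GC content and length were corrected for, and 17 when only the libraries of these 2 groups were fitted.

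HT-DNA also raised most of the ribosome biogenesis genes that it changed. Against Mock, 52 of 69 genes passed the test, beside 48.2% of all genes. Of these, 43 rose (62.3% of the 69, beside 24.2% of all genes) and 9 fell (13.0%, beside 24.0%), and the median log2 fold change was 0.33, beside -0.01 for all genes. With library totals the median of all genes was -0.12 and the split 35 higher and 11 lower. The Mock libraries enter this comparison and that of AOA, so the 2 are not independent.

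Among the snoRNP proteins 6 of 7 rose, with Nhp2 at 0.68, Nop58 at 0.66, Gar1 at 0.56 and Nop56 at 0.55 on the log2 scale. Nop58 went from 208, 223 and 245 CPM in Mock to 344, 365 and 363 CPM in HT-DNA, with no overlap. Tbl3 and Pwp2 of UTP-B rose by 0.71 each, and Rrp7a of UTP-C by 0.73 on the log2 scale. Pwp2 had 96.6, 101 and 91.2 CPM in Mock and 155, 160 and 155 CPM in HT-DNA. In the annotation 37.3% of the exon bases of Tbl3 also belong to Noxo1 on the opposite strand, which did not exceed 1.17 CPM in any library.

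Of the 14 nucleases and their subunits 10 rose, among them Pop1. Pop1 had 31.5, 30.9 and 28.9 CPM in Mock and 48.3, 49.7 and 45.1 CPM in HT-DNA, a log2 fold change of 0.65 ± 0.08 (SE; edgeR adjusted p = 9.961e-06). Eif6, which keeps the 60S subunit from joining too early, rose from 160, 173 and 167 CPM to 290, 261 and 288 CPM. Its log2 fold change was 0.75 ± 0.10. Nmd3 rose by 0.66 on the log2 scale. Xpo1, Rexo5 and Riok1, all changed by AOA, had log2 fold changes of 0.04, 0.02 and -0.02 with HT-DNA and were not called.

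The 9 genes that fell with HT-DNA were Xrn1, Utp14b, Csnk2a1, Xrn2, Nxf1, Gnl3l, Drosha, Rbm28 and Efl1. Xrn1 went from 38.1, 38.8 and 35.9 CPM to 16.3, 22.5 and 20.1 CPM, a log2 fold change of -0.93 ± 0.14. Casein kinase 2 split, with the catalytic subunit Csnk2a1 lower by 0.43 and the other, Csnk2a2, higher by 0.33 on the log2 scale. After the correction described next Csnk2a1 was at -0.08 and not called. Other genes hold 34.7% of the 31-base words of Csnk2a1, so its reads could be divided among them. Such a share exceeded 10% in 14 of the 69 genes. Besides Csnk2a1 these were Tbl3, Fcf1, Nop56, Fbl, Rrp7a, Ran, Imp3, Wdr3, Utp14a, Nvl, Nxt1, Eif6 and Riok2. The part of these shared words in their values was not tested. Mdn1, the AAA protein with the longest transcript of the 69, had 140, 145 and 109 CPM in Mock and 80.7, 110 and 95.0 CPM in HT-DNA. It overlapped between the groups and was not called.

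Transcript length and GC content moved with the HT-DNA effect, as the plot of effect against length shows. Of the 35 genes up to the median length of 3220 bases, 27 rose and none fell, and of the 34 longer genes 16 rose and 9 fell. Counts by length were not made over all genes. Spearman's rho between log2 fold change and length was -0.376 over the 69 genes and -0.404 over the 13909 tested genes with a length. With GC content it was 0.418 and 0.370. These are correlations across genes of the same libraries. After correction for both, 43 of the 69 genes were higher and 4 lower (Xrn1, Xrn2, Nxf1 and Drosha), and 34 of the 43 rises and 4 of the 9 falls above were called again. The shares over all genes after correction were not computed. Gar1 (0.11) and Fbl (0.05) were not called. The log2 fold change of Eif6 was then 0.32, of Nhp2 0.27, of Nop58 1.25 and of Xrn1 -0.33. Utp14b was at -0.11 without a call, while Xpo1 was called higher, at 0.48. The correction took each gene at its longest coding transcript, 9507 bases for Nop58, and which transcripts the cells use was not tested.

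**Figure D3:**
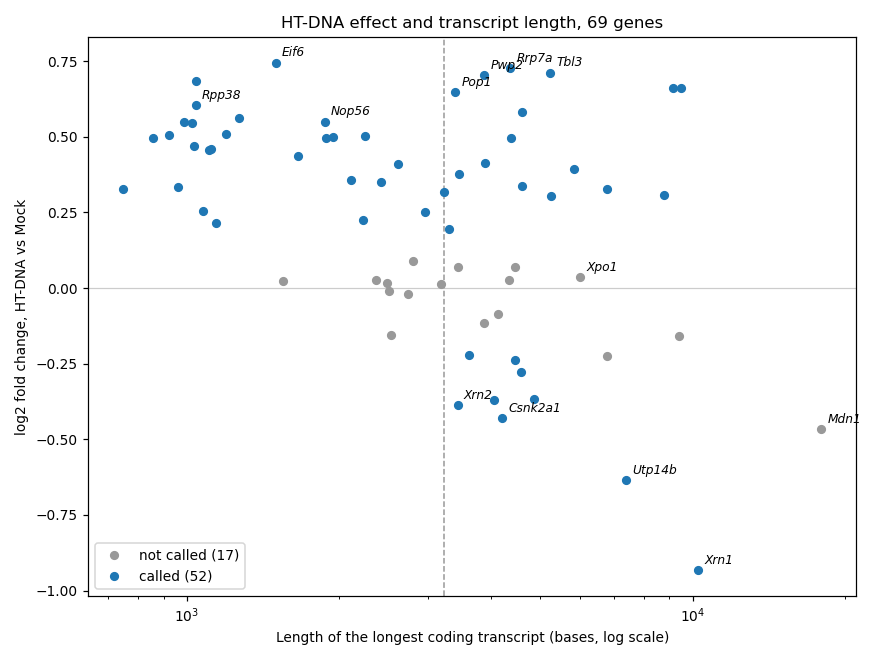
Each point is 1 of the 69 genes, at the length of its longest coding transcript in bases on a log scale and its log2 fold change in HT-DNA against Mock, blue where the adjusted p was under 0.05 and grey where it was not. The dashed line marks the median length of 3220 bases. All 9 called falls lie to its right.

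With HT-DNA present, AOA again raised most of the ribosome biogenesis genes that it changed. Between HT-DNA+AOA and HT-DNA, 33 of 69 passed the test, beside 45.4% of all genes. Of these, 26 rose (37.7%, beside 22.8% of all genes) and 7 fell (10.1%, beside 22.7%), with medians of 0.12 over the 69 and 0.02 over all genes on the log2 scale. Without HT-DNA+AOA replicate 1 the split was 24 higher and 5 lower, and without replicate 3 it was 32 and 14, of which 24 and 7 were calls made with all libraries. Corrected for GC content and length the split was 28 and 14, and 19 genes were called when the libraries of these 2 groups alone were fitted.

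Nuclease subunits and Nop56 rose furthest. Rpp38 rose from 8.59, 6.82 and 7.47 CPM to 16.9, 18.2 and 18.9 CPM, a log2 fold change of 1.24 ± 0.12 (SE; edgeR adjusted p = 8.52e-08). Rexo5 rose by 1.14, Nop56 by 0.95, the 40S kinase Riok1 by 0.88 and Pop4 by 0.69 on the log2 scale. Nop56 reached 755, 772 and 742 CPM, above every library of the other groups, and none of these 5 overlapped with HT-DNA. Of the UTP-A proteins 4 of 5 rose, by 0.38 to 0.45 on the log2 scale.

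The falls were led by Pop1 and Xpo1. Pop1 went from 48.3, 49.7 and 45.1 CPM to 29.1, 27.1 and 23.4 CPM, a log2 fold change of -0.84 ± 0.08 (edgeR adjusted p = 1.202e-07). Xpo1 went from 387, 448 and 422 CPM to 273, 261 and 239 CPM, a log2 fold change of -0.70 ± 0.07. Rexo1 fell by 0.54, the export cofactor Nxt1 by 0.39, Eif6 by 0.27, the methyltransferase Emg1 by 0.25 and Rcl1 by 0.19 on the log2 scale. Groups overlapped for 8 of the 33 genes called, a share not computed over all genes. Eif6 was 1 of them, with 190, 224 and 283 CPM in HT-DNA+AOA. Corrected for GC content and length, its log2 fold change was -0.03 and was not called.

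**Figure D4:**
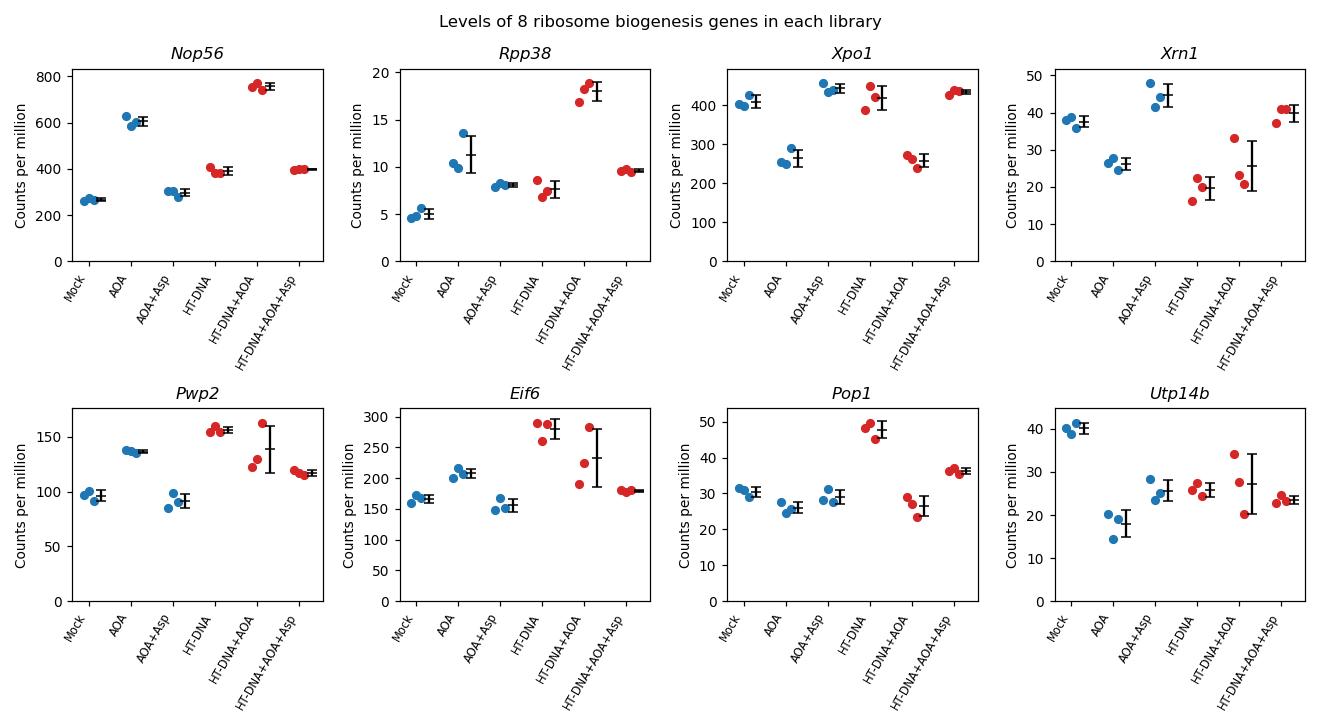
Each panel gives the level of 1 gene in CPM, from 0, in every library of the 6 groups, blue without and red with HT-DNA, with a black mark for the mean and bars of 1 SD (n = 3). Nop56 and Rpp38 are high in the AOA groups, Xpo1 is low in both, and the 3 HT-DNA+AOA libraries spread widely for Xrn1, Pwp2, Eif6 and Utp14b.

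The AOA effect differed with HT-DNA for 21 of the 69 genes. These are the genes called in the interaction, which is the AOA effect with HT-DNA minus that without it, beside 15.5% of all genes. The effect was lower with HT-DNA for 19 (27.5%, beside 8.26% of all genes) and higher for 2 (2.9%, beside 7.23%). The count was 36 without HT-DNA+AOA replicate 3, including all of the 21, and 20 and 17 without replicates 1 and 2. It was 10 when only the libraries of these 4 groups were fitted, and 28 when corrected for GC content and length, with 18 of the 21 among them. The calls lost were Gar1 (-0.11), Fbl (-0.05) and Nxt1 (-0.12). Spearman's rho of the interaction with GC content was -0.557 over the 69 genes and -0.462 over all genes with a length.

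Pwp2, Rcl1, Nhp2, Tbl3, Eif6, Nol6 and Rrp7a are examples of the 19. Each rose with AOA alone by 0.32 to 0.52 and with HT-DNA alone by 0.49 to 0.75, and had a log2 fold change of -0.27 to -0.06 when AOA was added to HT-DNA. Corrected for GC content and length, Nol6 (0.25) and Rrp7a (0.20) were instead called higher in that comparison, Tbl3 was at 0.16 without a call, and the other 4 stayed below 0. For Pwp2 the HT-DNA+AOA libraries held 123, 130 and 163 CPM, with HT-DNA libraries at 155, 160 and 155 CPM. The interaction of Pwp2 was -0.69 ± 0.12 on the log2 scale (edgeR adjusted p = 0.001248). Replicate 3 of HT-DNA+AOA was the highest of its group for each of these 7 genes. Pop1 stood apart from them, with a fall under AOA in both settings and an interaction of -0.62.

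Xrn1 and Utp14b went the other way. For Xrn1, AOA lowered the level without HT-DNA, and the test called it higher with HT-DNA. It went from 16.3, 22.5 and 20.1 CPM to 33.2, 23.1 and 20.7 CPM, where the groups overlap. Only replicate 1 of HT-DNA+AOA stood far above the HT-DNA libraries. The interaction of Xrn1 was 0.90 ± 0.19 on the log2 scale (edgeR adjusted p = 0.005536), and 0.42 after correction for GC content and length. For Utp14b the interaction was 1.25 ± 0.20, with 25.7, 27.4 and 24.3 CPM in HT-DNA and 34.1, 27.6 and 20.2 CPM in HT-DNA+AOA.

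The genes called in both settings can be counted because the AOA comparisons with and without HT-DNA share no library. AOA raised 18 genes in both, which is 52.9% of the 34 raised without HT-DNA and 69.2% of the 26 raised with it, and 12.4% of all genes tested were raised in both. Among all genes the shares were 55.0% and 54.3%. Pop1, Rexo1 and Xpo1 were lowered in both, which is 42.9% of the 7 lowered without HT-DNA, beside 60.9% over all genes (14.1% of all genes tested were lowered in both). Among the others, Eif6 and Rcl1 went from higher to lower (0.603%), and Xrn1 from lower to higher (0.61%). That rise of Xrn1 lay mainly in replicate 1 of HT-DNA+AOA.

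**Figure D5:**
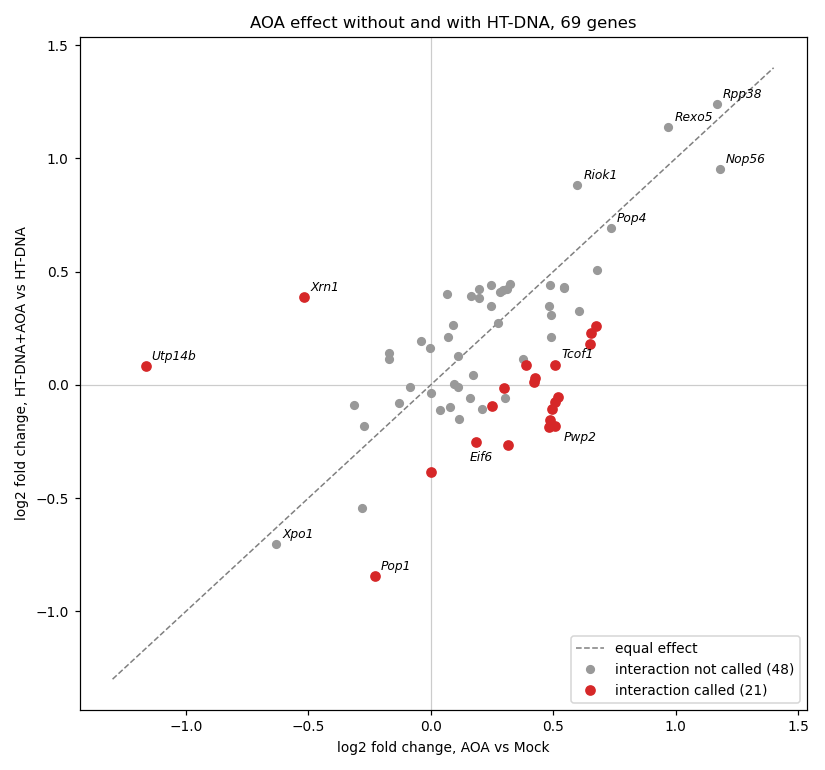
The horizontal axis gives the log2 fold change of AOA against Mock and the vertical axis that of HT-DNA+AOA against HT-DNA, with 1 point for each of the 69 genes, red for the 21 whose interaction was called. The dashed line marks an equal effect. Nop56, Rpp38, Rexo5, Pop4 and Xpo1 lie near it, 19 of the red points lie below it, and Xrn1 and Utp14b above it.

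In stimulated cells with AOA, aspartate lowered most of the ribosome biogenesis genes that it changed. Between HT-DNA+AOA+Asp and HT-DNA+AOA, 35 of 69 genes passed the test, beside 47.7% of all genes. Of these, 28 fell (40.6%, beside 23.9% of all genes) and 7 rose (10.1%, beside 23.7%), with medians of -0.16 over the 69 and -0.01 over all genes on the log2 scale. With library totals the split was 22 lower and 13 higher, and without HT-DNA+AOA replicate 1 it was 32 and 14. In a fit of these 2 groups alone 23 genes were called.

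Nop56 fell to 395, 401 and 398 CPM, a log2 fold change of -0.93 ± 0.06 (edgeR adjusted p = 5.619e-10). Rpp38 fell by 0.91, Imp3 by 0.80, Rexo5 by 0.79, Pop7 by 0.75 and Pop4 by 0.68 on the log2 scale. Nmd3 fell from 101, 113 and 108 CPM to 67.8, 70.6 and 71.0 CPM, with no overlap. Xpo1 rose to 427, 438 and 435 CPM, again by 0.75 ± 0.07, and Xrn1 to 37.2, 41.1 and 41.0 CPM. Pop1, Xrn2, Nxf1, Efl1 and Rexo1 rose by 0.26 to 0.45 on the log2 scale.

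The aspartate comparisons with and without HT-DNA share no library. Aspartate lowered 26 genes in both, which is 83.9% of the 31 and 92.9% of the 28. Over all genes the same shares were 76.8% and 73.3%, and 17.5% of all genes tested were lowered in both. It raised 6 in both (Efl1, Nxf1, Rexo1, Xpo1, Xrn1 and Xrn2), which is 66.7% of the 9 and 85.7% of the 7, beside 75.5% and 74.5% over all genes and 17.7% of all genes tested. None of the 69 was called in opposite directions, beside 0.154% of all genes for higher then lower and 0.028% for lower then higher. The interaction of aspartate with HT-DNA was called for none of the 69 genes by edgeR, beside 1.04% of all genes, with 13 at an unadjusted p under 0.05 and 2 called by DESeq2. Without HT-DNA+AOA replicate 3 it was called for 5. The 34 genes that AOA raised against Mock and the 28 that aspartate lowered in stimulated cells also come from separate libraries. They had 26 genes in common, 76.5% of the 34 and 92.9% of the 28, beside 69.7% and 65.5% over all genes, of which 15.7% were in both lists. Of the 7 genes that AOA lowered, aspartate raised 5 in stimulated cells (71.4%), beside 69.4% over all genes, of which 16.1% were in both lists.

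Stimulated cells with aspartate did not end at the level of HT-DNA alone for every gene. Between HT-DNA+AOA+Asp and HT-DNA, 40 of the 69 genes were called, beside 46.6% of all genes, 18 higher (26.1%, beside 23.2%) and 22 lower (31.9%, beside 23.5%), and the median was 0.01. Xrn1 was higher by 1.01 ± 0.14, Mdn1 by 0.80 ± 0.21, Nxf1 by 0.61 and Xrn2 by 0.55 on the log2 scale. Mdn1 had 80.7, 110 and 95.0 CPM in HT-DNA and 167, 171 and 159 CPM in HT-DNA+AOA+Asp. Eif6 and Rrp7a were lower by 0.64 each, Nxt1 by 0.50 and Nhp2 by 0.48 on the log2 scale. Spearman's rho with length was 0.366 and with GC content -0.520 over the 69 genes, and 0.351 and -0.530 over all genes. After correction for both, the split was 13 higher and 25 lower, and the log2 fold changes were 0.42 for Xrn1, 0.32 for Mdn1, 0.23 for Xrn2, -0.18 for Eif6 and for Nxt1, and -0.11 for Nhp2 without a call.

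Over the 18 libraries, the level of each gene was set beside the mean of the other 68 as a description, since all share the same libraries and scaling. Pearson's r of log2 CPM was highest for Wdr43 (0.957), Gtpbp4 (0.954), Utp4 (0.906), Nmd3 (0.902) and Nop56 (0.899). It was lowest for Nxt2 (-0.749), Xpo1 (-0.646), Gnl3l (-0.597), Xrn1 (-0.550), Efl1 and Utp14b (both -0.526). Bms1, a GTPase of the 90S particle, and Sbds, which with Efl1 releases Eif6, were called in no comparison, and Sbds stayed between 33.4 and 40.2 CPM in all 18 libraries.

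Genes of the pathway outside the KEGG entry were read from other lists. Over all genes, AOA raised 22.5% and lowered 23.2%, and HT-DNA raised 24.2% and lowered 24.0%. Aspartate lowered 22.8% and raised 23.4% of all genes without HT-DNA, and lowered 23.9% and raised 23.7% with it. Of 40 further assembly factors, AOA raised 29 and lowered none, HT-DNA raised 33 and lowered none, and aspartate lowered 26 and raised 4 without HT-DNA and lowered 24 and raised 1 with it. The largest AOA effect among them was on the helicase Ddx56 (1.04), which aspartate lowered by 1.10 on the log2 scale. Of 10 abundant nucleolar proteins, AOA raised 8 and HT-DNA raised 8, with Bop1 counted in both lists. Nucleolin (Ncl) rose by 0.45 on the log2 scale with AOA and had a log2 fold change of -0.10 with HT-DNA, without a call, and nucleophosmin (Npm1) rose by 0.28 and 0.58.

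RNA polymerase I and its factors changed in both directions. Of 15 genes, AOA raised 6 and lowered 2 (beside 22.5% and 23.2% of all genes), and HT-DNA raised 10 and lowered 1 (beside 24.2% and 24.0%). Rrn3, which links the polymerase to its promoter, rose by 0.44 with AOA and 0.32 with HT-DNA on the log2 scale. Polr1b, the second largest subunit, fell by 0.32 with AOA, rose by 0.49 with HT-DNA and fell by 0.84 when AOA was added to HT-DNA, on the log2 scale, as Pop1 did. The subunit Polr1a was not called in either comparison with Mock, and Ubtf rose with HT-DNA by 0.34 on the log2 scale.

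Of 6 listed regulators, 5 had counts enough to be tested. Myc, a transcription factor known to act on many ribosome biogenesis genes, had 139, 144 and 135 CPM in Mock and 575, 521 and 516 CPM in AOA. It was at 149, 161 and 143 CPM in AOA+Asp, so that its AOA libraries stood above all others without HT-DNA, with a log2 fold change of 1.95 ± 0.07 against Mock (edgeR adjusted p = 1.06e-13). With HT-DNA it was at 169, 177 and 181 CPM, with HT-DNA+AOA at 668, 615 and 663 CPM and with aspartate added at 189, 186 and 179 CPM. Its interaction of AOA with HT-DNA was -0.06 ± 0.09 and was not called. Max, the partner of Myc, rose by 0.19 with HT-DNA and fell by 0.62 when AOA was added to it, on the log2 scale. Whether Myc has a part in the levels of the 69 genes was not tested.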

How the data were processed

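Total RNA of L929 cells, isolated with TRIzol, was sequenced at Majorbio. The aligner, counting program, genome build and strand setting are not given in the sources used here. The authors deposited estimated counts (expected counts) per gene without normalization, 11.6% of them not whole, and they were rounded. Group means in the table equalled the means of 3 libraries (largest deviation 3.3e-05) and were not used. Counts were fitted in R 4.3.3 with edgeR 4.0.16 (filterByExpr with a minimum count of 10 and a minimum total of 15, TMM factors 0.918 to 1.07, robust quasi-likelihood model of all 18 libraries), with Benjamini-Hochberg adjustment over 14263 genes. CPM use TMM-scaled totals. The p-values measure only the spread between cultures, taken as a shared estimate for each gene over all 6 groups. The HT-DNA+AOA cultures spread more than those of any other group (median SD 0.179 on the log2 CPM scale), so for them this estimate can be too small. Members, roles and lists were chosen with earlier results of these data known. Genes named by rule were, among those called, the 5 largest rises and falls of each comparison, those past 1 on the log2 scale and those against most of their role, with the highest per kilobase of each role, those called nowhere, and in other lists Myc, Ubtf, Rrn3, Polr1a, Polr1b, Ncl, Npm1 and the 2 largest changes (42 of the 69 in all). Others were named after their values were seen. GC content, length and overlaps came from GENCODE vM21, promoters from RefSeq. The correction removed each library's loess trend (span 0.3) over GC content and length as an offset. DESeq2 1.42.0 and the other alternatives are given after the report. In simulated counts of AOA against Mock, with 200 of 14263 genes changed by 1 on the log2 scale, 99.1% of those over 10 CPM were called. Of all 200, 75% were called, and 6.83% of the calls fell on unchanged genes.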

Additional observations from a re-analysis of the deposited data

Results flagged for a closer look

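The AOA effect differed between cells with and without HT-DNA, by the test of the interaction in edgeR's quasi-likelihood fit, for 21 of the 69 genes, and all values here are log2 differences of the 2 AOA effects. It was lower with HT-DNA for the UTP-B proteins Pwp2 (-0.69) and Tbl3 (-0.60), the UTP-C and casein kinase 2 proteins Nol6 (-0.58), Rrp7a (-0.57) and Csnk2a2 (-0.32), and the snoRNP proteins Nhp2 (-0.64), Gar1 (-0.47) and Fbl (-0.41). Among factors of the 90S particle it was lower for Rcl1 (-0.67), Emg1 (-0.44), Tcof1 (-0.42), Nat10 (-0.41) and Imp4 (-0.30). It was also lower for the nuclease subunits Pop1 (-0.62) and Rpp40 (-0.40), the late factors Eif6 (-0.58) and Nob1 (-0.42), Nxt1 (-0.39) and Gnl3 (-0.34). It was higher for Xrn1 (0.90) and Utp14b (1.25). With the GC content and length correction Gar1 (-0.11), Fbl (-0.05) and Nxt1 (-0.12) were no longer called. The HT-DNA+AOA libraries that enter each value stood apart from each other, and the part of that spread in these values was not tested. All 21 calls were also made without replicate 3 of that group, and 19 and 17 of them without replicates 1 and 2.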

How the results depend on the processing

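Of 177 calls on named genes, recomputed under 2733 alternative values, 2479 kept their direction and side of the threshold, 247 were no longer called and 7 turned. With the GC content and length correction Csnk2b was at -0.0521 in HT-DNA against Mock and 0.0183 in HT-DNA+AOA+Asp against HT-DNA, Fbl at 0.0398 and 0.247 in HT-DNA+AOA+Asp against HT-DNA+AOA and HT-DNA, Pop7 at 0.0699 in the latter, and Gnl3l and Rbm28 at 0.00124 and 0.0214 in HT-DNA against Mock (log2). Among called genes outside that rule it turned Nxt2 in AOA+Asp against AOA (-0.07), Rpp25l in HT-DNA against Mock (-0.05), and Gar1 (0.22), Rpp25l (0.27), Pop5 (0.13), Nvl (-0.05) and Wdr36 (-0.10) in HT-DNA+AOA+Asp against HT-DNA. The cause was not tested. That correction called 15 genes in AOA+Asp against Mock and 4 in the interaction of aspartate with HT-DNA. Shares over all genes were not computed for the alternative settings in this section. An adjusted p under 0.01 called 3 in AOA+Asp against Mock, 26 in HT-DNA+AOA+Asp against HT-DNA and 10 in the interaction of AOA with HT-DNA. With only the groups compared, each fit had fewer libraries and its own estimate of the spread. It called 49 genes in AOA against Mock, 45 in AOA+Asp against AOA and 17 in AOA+Asp against Mock. It called 54 in HT-DNA against Mock and 47 in HT-DNA+AOA+Asp against HT-DNA, and all of these exceed the main fit. With HT-DNA+AOA among the groups it called fewer than the main fit in HT-DNA+AOA against HT-DNA (19) and HT-DNA+AOA+Asp against HT-DNA+AOA (23). The same held for the interaction of AOA with HT-DNA (10). The reason was not tested. DESeq2 called 10 in AOA+Asp against Mock and 2 in the interaction of aspartate with HT-DNA, where 1 was called without a filter.

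Leaving out each library in turn gave 37 to 40 genes for AOA against Mock, 35 to 41 for AOA+Asp against AOA, 2 to 6 for AOA+Asp against Mock, 46 to 50 for HT-DNA against Mock, 26 to 46 for HT-DNA+AOA against HT-DNA, 31 to 46 for HT-DNA+AOA+Asp against HT-DNA+AOA and 29 to 39 for HT-DNA+AOA+Asp against HT-DNA. The interactions ranged from 17 to 36 for AOA and from 0 to 5 for aspartate. The replicate numbers share only a number: over 45 same-numbered pairs the correlation of deviations had a median of 0.00814, with 7 pairs over 0.1, and 9 of 18 libraries correlated best with their own number. With the replicate block the counts were 43, 41, 6, 52, 33, 36 and 40 for the comparisons in the order above, and 21 and 0 for the interactions. In simulated counts with 200 of 14263 genes changed by 0.5 on the log2 scale, 74.4% of those over 10 CPM were called, so some were missed. Of all 200, 47% were called, and 3.09% of the calls fell on unchanged genes. The data called 45.7% of all genes in AOA against Mock, so the simulated share does not carry over to them.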
